A study of Bos taurus with 18 samples.

Results

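Retinoids are the vitamin A derivatives that cells use as a transcriptional signal. Retinol travels in plasma on the carrier RBP4, is oxidised inside the cell to retinaldehyde and then, by the ALDH1A enzymes, to retinoic acid. The cytosolic binding proteins CRABP1 and CRABP2 hold retinoic acid, and the nuclear receptors RARA, RARB and RARG, paired with RXR partners, change transcription of target genes when it binds. In skeletal progenitors, retinoic acid signalling through the RARs is known for restraining cartilage differentiation.

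Levels of these 9 genes (CRABP1, CRABP2, RBP4, ALDH1A1, ALDH1A2, ALDH1A3, RARA, RARB and RARG) were taken by symbol from counts on 16989 genes. All 9 symbols were listed, 7 had a read in some library and 6 had enough reads to be tested. The libraries hold polyA RNA from bone marrow derived mesenchymal stem cells (MSCs) of juvenile cattle, untreated and grown on tissue culture plastic in DMEM with FBS and antibiotics. There were 17 clonal populations, named A to Q, each grown from 1 cell, and 1 mixed (heterogeneous) population, all of the same donor. Every population was sequenced in 1 library, so the spread given here is that between clones and holds no repeat of any clone. The values describe 17 single-cell-derived cultures and 1 mixed culture of 1 animal before any chondrogenic induction. The question they bear on is how far retinoid genes differ between clones of 1 donor, and whether the mixed population lies within the clonal range.

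Reads on genes ranged from 11484812 to 18458157 per clone, and the heterogeneous library lay within that range. A count of 0 was read as allowing up to 3 reads, which at this depth equal 0.1625 to 0.2612 CPM (counts scaled to 1000000 reads on genes per library). The 95% exact Poisson intervals given with single values are a different bound and reach somewhat higher at 0 reads, to 0.321 CPM in clone D. Intervals and limits cover counting error only. The MSC label was checked against 10 markers. Of these, 9 reached 10 reads in some library, with THY1, ENG, NT5E, CD44 and PDGFRB each at 1535 or more reads in every clone, VCAM1 at 0 to 47 reads and LEPR at no more than 2 reads. The summed level of 10 macrophage markers was 2.17 to 8.35 CPM in the clones and 150.8 CPM in the heterogeneous population, and that of 6 leukocyte markers was 0.29 to 3.20 CPM against 56.7 CPM.

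Chondrocyte markers summed to 2004 to 8530 CPM in the clones and osteoblast markers to 357.3 to 1973 CPM. Few genes carried these sums. In the chondrocyte list COL11A1 alone ran from 1682 to 6884 CPM and ACAN from 19.5 to 3032 CPM. SOX9 there ran from 2.55 to 24.2 CPM and COL9A1 from 0 to 1.33 CPM. In the osteoblast list SPP1 alone ran from 243.5 to 1878 CPM. The adipocyte list came to 19.1 to 140.3 CPM and the endothelial list to 15.8 to 88.5 CPM. The epithelial or mesothelial list was lowest at 7.42 CPM in clone M and came to 33.7 CPM in the heterogeneous population. In all 5 of these lists the sum in the heterogeneous population lay within the range of the sums in the clones. Single genes did not always do so. In the heterogeneous population COL2A1, at 16.4 CPM (264 reads), was below every clone, as 10.9% of genes were. The lowest clone for it, clone L, was close at 19.4 CPM (271 reads). VWF at 10.6 CPM and CDH1 at 8.89 CPM were above every clone (at most 6.75 and 6.01 CPM).

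The 6 tested genes differed in how much they varied between clones, and ALDH1A1 was the only enzyme among them. ALDH1A1 and CRABP1 spanned 59.4-fold and from 0 reads to 14.4 CPM over the 17 clones, whereas RARA spanned 2.10-fold and RARG 2.58-fold. CRABP2 and RBP4 lay between these, at 9.45-fold and 3.50-fold. Of the 6 genes with a level over 1 CPM in a clone, 3 (CRABP1, CRABP2 and ALDH1A1) had a range above 4-fold on the log2(CPM + 0.25) scale, which 24.0% of the 11477 genes at that level also had. The 9 genes were chosen by symbol on the strength of their levels in these same libraries, so the spread is a description with no test. CPM is not corrected for gene length, and levels are compared between libraries and not between genes.

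**Figure D1:**
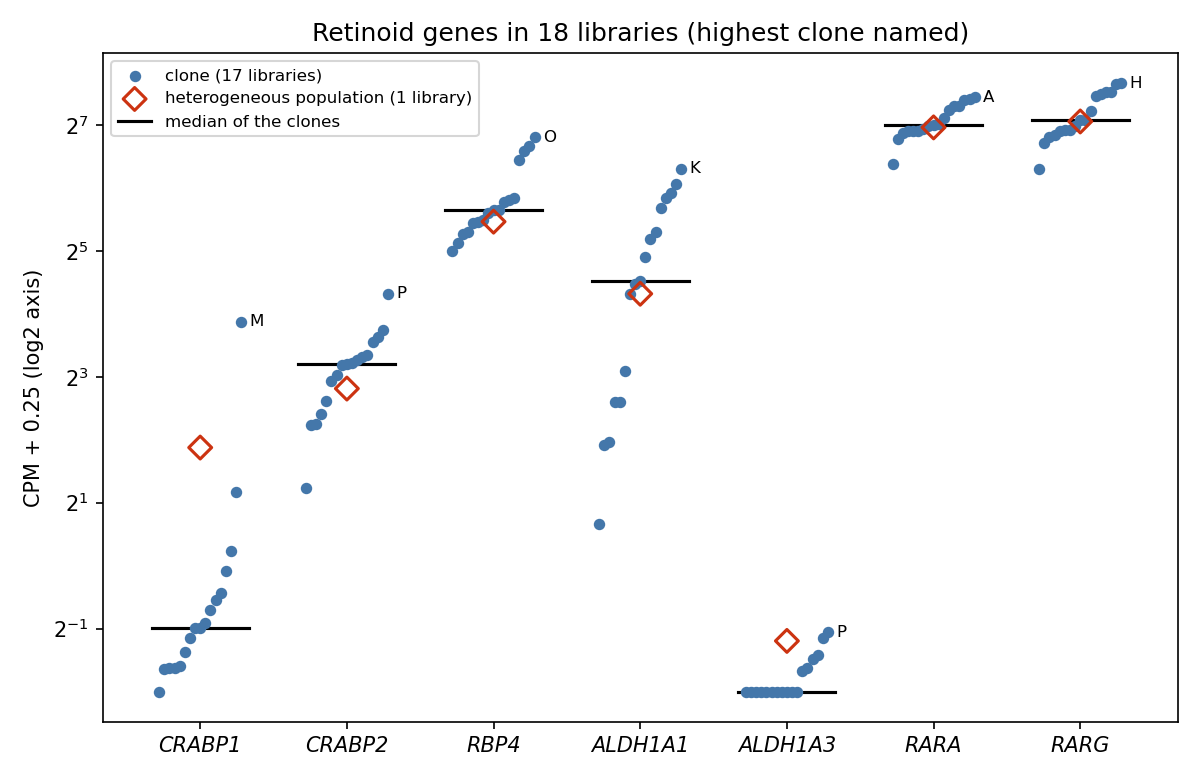
Level of each retinoid gene that had a read, as CPM + 0.25 on a log2 axis. Points are the 17 clones in rising order, the open diamond is the heterogeneous population, the line is the median of the clones and the letter names the highest clone. ALDH1A1 and CRABP1 spread widely whereas RARA and RARG keep within 2.10-fold and 2.58-fold; heights are not comparable between genes, since CPM is not corrected for length.

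ALDH1A1 encodes a retinaldehyde dehydrogenase, the enzyme class that makes retinoic acid. It was lowest in clone P at 1.33 CPM (23 reads), had a median of 22.7 CPM and was highest in clone K at 78.8 CPM (1086 reads). Its SD was 1.73 log2 units (n = 17 clones), larger than in 99.4% of the genes over 1 CPM.

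The upper end of the ALDH1A1 order held clones K, N, H, F and I, at 78.8, 66.4, 60.4, 56.9 and 50.9 CPM. Clones L, G and A followed with 39.1, 36.0 and 29.5 CPM, and clones D, B and E with 22.7, 21.9 and 19.6 CPM. A step then separated clone E from clones J, C and O, which had 8.24, 5.80 and 5.79 CPM. Clones M and Q, at 3.63 and 3.52 CPM, and clone P closed the order. Ordered with the heterogeneous library, 10 of 17 neighbouring pairs had overlapping 95% counting intervals (exact Poisson), so the order within those pairs is loose. Within the blocks, clone K stood above clone N, clone G above clone A and clone P below clone Q beyond counting error. Counting error accounts for little of the range: the coefficient of variation was 83.2% between clones, against 4.84% from counting at the mean number of reads. The edgeR biological coefficient of variation, a spread estimate that removes counting error, was 90.6% for ALDH1A1 against 32.1% in common over all genes.

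Reads of the other retinaldehyde dehydrogenases were nearly lacking. ALDH1A3 had 0 reads in 11 clones and at most 4 reads, in clone P, and it had 3 reads in the heterogeneous population. ALDH1A2 had 0 reads in all 18 libraries, and so did the receptor RARB. These zeros cannot be read as a lack of transcript, because 15% of listed genes (2548) had 0 reads in every library, among them PGK1, HPRT1 and TBP, which nearly all cells use. GAPDH, with 1 to 12 reads, was likewise close to 0, while ACTB had 33088 to 86964 reads.

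The retinoic acid binding protein CRABP1 was nearly silent in most clones and high in 1. Clone M had 266 reads, or 14.4 CPM (95% counting interval 12.7 to 16.2). Clone E came next with 31 reads (2.001 CPM, 1.36 to 2.84), then clone P with 16 reads and clone B with 11 reads. The 13 clones left had 0 to 7 reads, with 0 in clone D, which by the 3-read limit allows up to 0.261 CPM there. The level in clone M was 7.20 times that in clone E and did not overlap with any other library.

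Each clone was also compared with the other 16 in turn by edgeR's quasi-likelihood test over 11761 genes, where the lone clone is assumed to vary as the others do. Genes called in at least 1 of these 17 fits made up 0.765% of those tested, and calls made up 0.045% of all pairs of a gene and a clone. Clone N had 86 called genes (0.731%), none of them a retinoid gene listed here, clone M had 4 (0.034%), all higher, and each other clone had 0. CRABP1 was 1 of these 4, at a log2 difference of 5.26 (standard error 0.82, adjusted p = 0.0217 within the fit, edgeR). With adjustment over all 17 fits together the adjusted p of edgeR was 0.0633, above the threshold of 0.05, and over other normalizations, filters and limma it lay between 4.68e-06 and 0.0276. The gene was chosen with its level in clone M known, so this call describes these libraries and is no independent support. CRABP1 passed the filter on low counts in these fits through the few libraries where it was high. Its SD between clones fell from 1.41 to 0.83 log2 units when clone M was left out, and was 0.94 with a pseudocount of 1 in place of 0.25.

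No other retinoid gene was called in a clone by edgeR. Of the 102 pairs of a tested member and a clone, 7 (6.86%) had an unadjusted p under 0.05, against 4.40% of all 199937 pairs of a gene and a clone. These 7 were CRABP1 in clone M, CRABP2 in clones D (lower) and P (higher), ALDH1A1 in clone P (lower), RARA in clones A (higher) and F (lower), and RARG in clone F (lower). DESeq2 was not run on single clones, and limma called the same 1 pair.

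CRABP2, the paralog that delivers retinoic acid to the receptors in the nucleus, had reads in all libraries. It was lowest in clone D at 2.09 CPM (24 reads), had a median of 8.91 CPM and was highest in clone P at 19.7 CPM (342 reads). Only these 2 ends stood apart from their neighbours beyond counting error, and from clone K at 4.43 CPM to clone M at 13.1 CPM each library overlapped the next. Its SD was 0.72 log2 units, above that of 84.6% of genes. The share of CRABP1 in the reads of both genes was 0% to 8.96% in 15 clones. It reached 28.4% in clone E (95% Wilson interval 20.8% to 37.5%) and 52.4% in clone M (48.0% to 56.7%). The 2 genes differ in length, which these shares do not correct for.

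**Figure D2:**
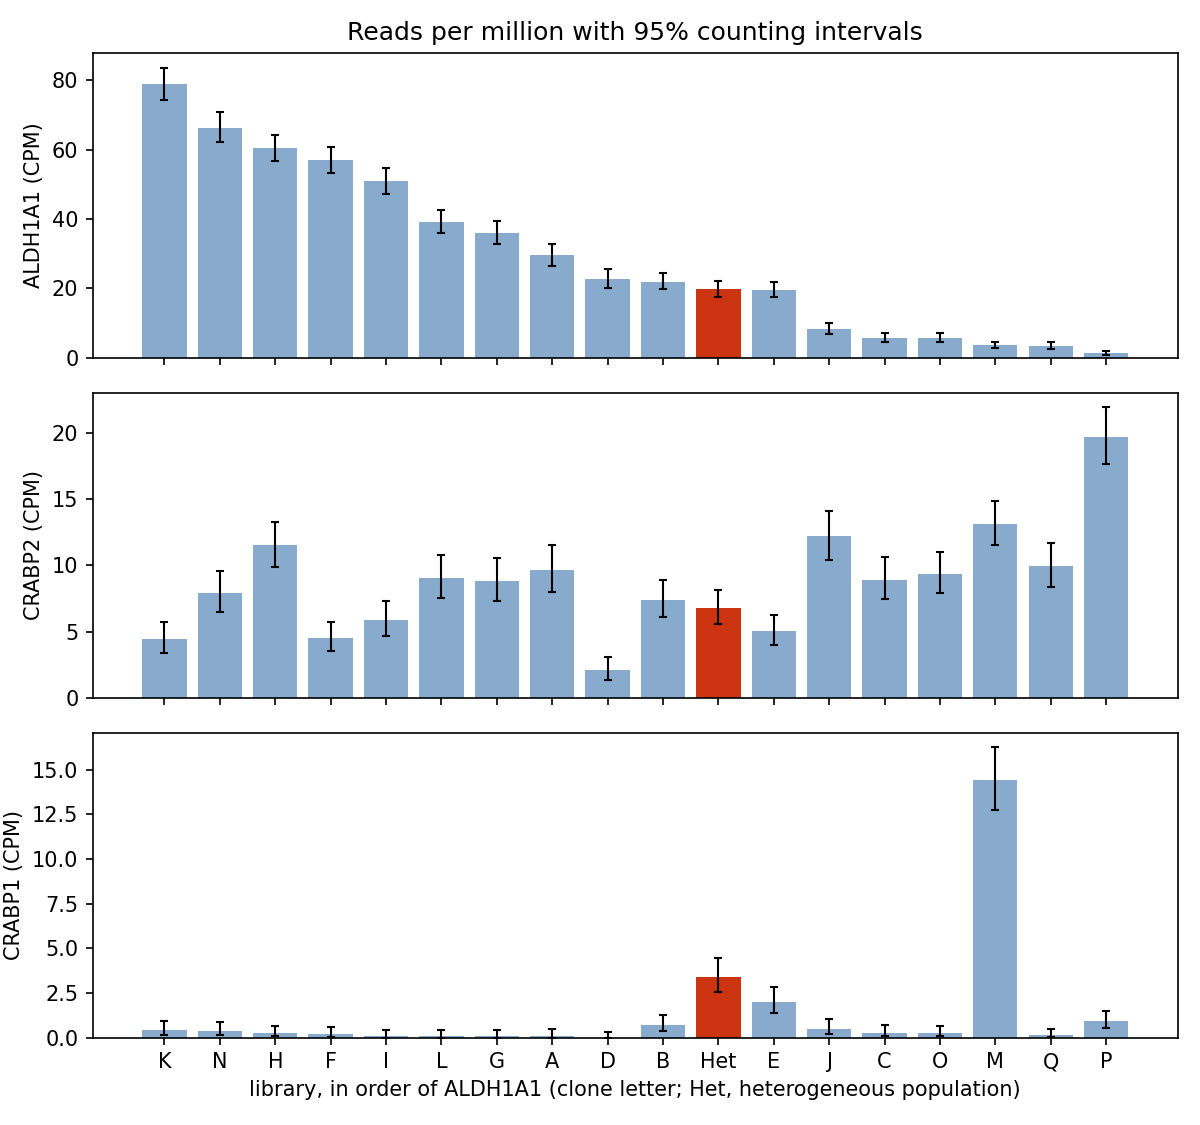
CPM of ALDH1A1 (top), CRABP2 (middle) and CRABP1 (bottom) in each library, ordered by ALDH1A1, with 95% exact Poisson counting intervals. Blue bars are clones and the red bar is the heterogeneous population; ALDH1A1 falls from 78.8 CPM in clone K to 1.33 CPM in clone P, CRABP2 is highest in clone P at 19.7 CPM, and CRABP1 stands out in clone M at 14.4 CPM.

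RBP4, the plasma carrier of retinol, was lowest in clone M at 31.8 CPM (587 reads), had a median of 49.9 CPM and was highest in clone O at 111.5 CPM (1753 reads). Clones O, C, G and A, at 111.5, 101.6, 96.0 and 87.2 CPM, formed an upper block separated from clone I at 57.1 CPM by more than their counting intervals. Below this step the libraries ran down to clone M without another gap of that kind. The SD was 0.55 log2 units (n = 17 clones) and the biological coefficient of variation 36.6%, close to the common value.

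The receptors varied least of the 6 tested genes. RARA was lowest in clone F at 82.6 CPM, had a median of 127.9 CPM and was highest in clone A at 173.6 CPM, with an SD of 0.28 log2 units. RARG was lowest in the same clone F at 78.4 CPM, had a median of 134.2 CPM and was highest in clone H at 201.9 CPM, with an SD of 0.38 log2 units. These spreads exceed those of 34.05% and 56.5% of genes, and the biological coefficients of variation were 20.4% and 24.0%. Clone F stood below the next library by more than counting error for both receptors. The ratio of RARG to RARA reads ran from 0.67 in clone D to 1.54 in clone N, with a median of 1.05.

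**Figure D3:**
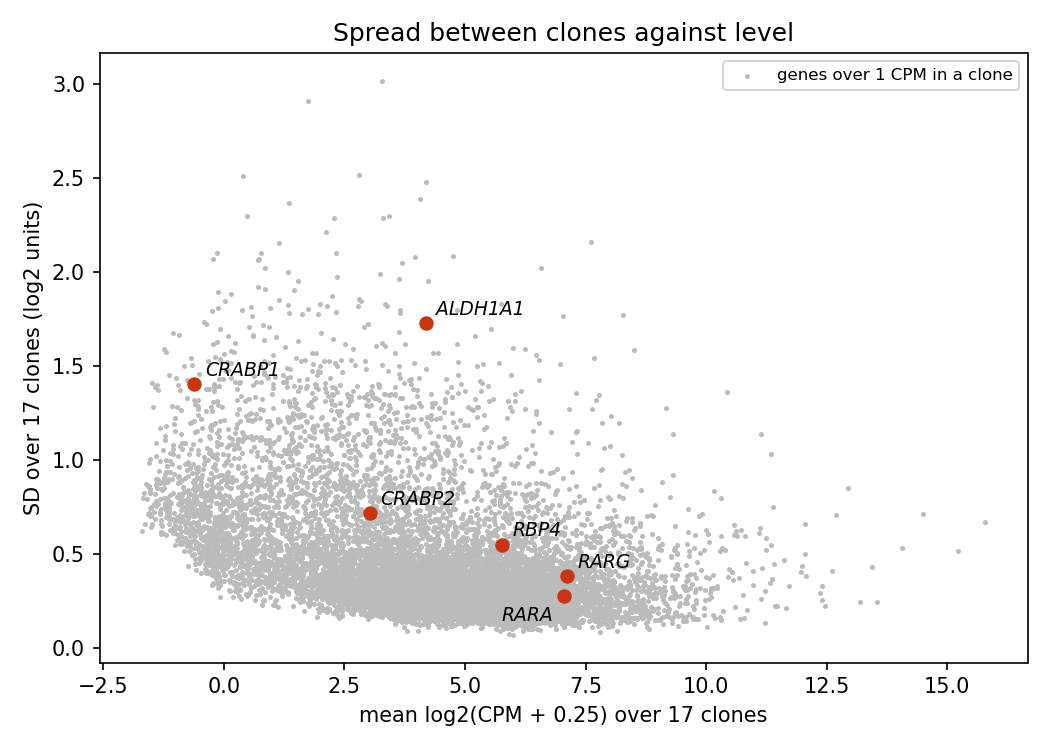
SD over the 17 clones against mean level, both in log2(CPM + 0.25), for each of the 11477 genes over 1 CPM in a clone (grey), with the 6 retinoid genes at that level in red. ALDH1A1 (SD 1.73) and CRABP1 (SD 1.41) lie high among genes of their level and RARA (0.28) and RARG (0.38) in the body of the cloud.

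Levels of some of these genes ran together over the clones. Correlations of log2(CPM + 0.25) over 17 clones are given as descriptions without p-values, since the genes were chosen with these data known and the points share library preparation and depth. RARA and RARG had r = 0.686 (rho = 0.515, and r = 0.553 without clones A and F, the pair farthest from the median of RARA), a value that 1.15% of 10350 genes reached with RARA. Leaving out 1 clone at a time gave r from 0.519 to 0.802. CRABP2 and RARG had r = 0.685 (rho = 0.750, r = 0.705 without clones D and P), which 0.667% of genes reached with CRABP2. Taken from the side of RARG, high values were more common. ADH5 had r = 0.652 with RARG (rho = 0.659, r = 0.612 without clones F and H), which 6.51% of genes reached. The shares of genes that reached 0.685 or 0.686 with RARG are not given here. CRABP2 also ran with the number of reads on genes (r = 0.595, rho = 0.512, r = 0.291 without clones D and M), where RARG had r = 0.126 (rho = 0.186, r = 0.009 without the same clones). ALDH1A1 ran the other way with depth (r = -0.486, rho = -0.480, r = -0.455 without clones D and M). The part of depth in these relations was not tested.

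The obligate receptor partner RXRA followed both receptors. With RARG it had r = 0.807 (rho = 0.775, r = 0.677 without clones F and H) and with RARA r = 0.752 (rho = 0.726, r = 0.758 without clones A and F). As high an r was reached by 0.812% of genes with RARG and by 0.435% with RARA. RXRA was lowest in clone F at 48.8 CPM and highest in clone H at 142.4 CPM. Clone F was therefore the lowest clone for RARA, RARG, RXRA and also RXRB (26.2 CPM against a median of 37.6 CPM). Under TMM scaling the r of RXRA was 0.734 with RARG and 0.618 with RARA.

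ALDH1A1 ran against CRABP2 (r = -0.555, rho = -0.566, r = -0.558 without clones D and P), and 3.99% of genes had as low an r with CRABP2. It ran with TGM2, a transglutaminase known as a retinoic acid target, at r = 0.716 (rho = 0.760, r = 0.663 without clones P and Q), which 1.03% of genes reached. CRABP2 and TGM2 had r = -0.606 (rho = -0.586, r = -0.428 without clones D and P). TGM2 was lowest in clone M at 1.19 CPM and highest in clone H at 21.8 CPM. The r of ALDH1A1 with the other targets compared was smaller in size. ALDH1A1 had r = 0.122 with DHRS3 (rho = 0.206, r = 0.276 without clones P and Q), r = 0.096 with LRAT (rho = 0.127, r = 0.493) and r = -0.088 with MEIS2 (rho = -0.061, r = 0.167). It had r = -0.409 with RARRES2 (rho = -0.257, r = -0.158), r = -0.471 with MEIS1 (rho = -0.326, r = -0.205) and, outside the targets, r = -0.166 with RXRA (rho = -0.066, r = 0.027). With CRABP2, ALDH1A1, RARA and RARG, RBP4 had r between -0.260 (RARG; rho = -0.289, r = -0.265 without clones C and O) and 0.031 (CRABP2; rho = -0.147, r = -0.064 without clones D and P). Its lowest r with another pathway gene was -0.642 (the coactivator NCOA2; rho = -0.652, r = -0.444 without clones C and O), and 5.42% of genes had as low an r with RBP4 as NCOA2 had.

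**Figure D4:**
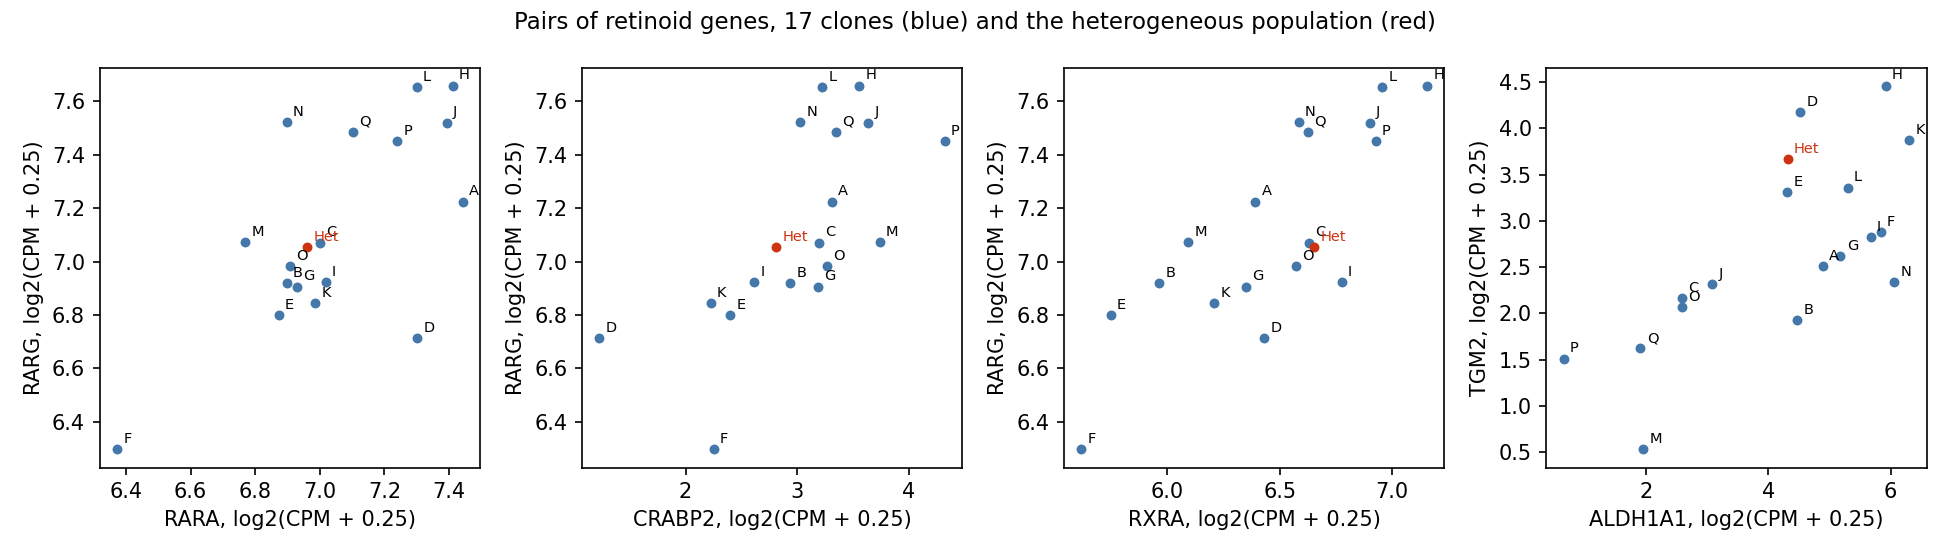
Levels of gene pairs in log2(CPM + 0.25), 1 point per library, with clones in blue and the heterogeneous population in red. From left to right the r over the 17 clones was 0.686 (RARA and RARG), 0.685 (CRABP2 and RARG), 0.807 (RXRA and RARG) and 0.716 (ALDH1A1 and TGM2), and clone F lies lowest in the 3 RARG plots.

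Among 10350 other genes, those close in pattern to ALDH1A1 included the genes for the adhesion protein vinculin (VCL, r = 0.916, rho = 0.907, r = 0.888 without clones P and Q) and the collagen-binding integrin chain ITGA1 (r = 0.890, rho = 0.873, r = 0.876). Over the clones VCL ran from 519.7 to 1367 CPM and ITGA1 from 86.6 to 373.3 CPM. CRABP2 was nearest to PLXNA3 (r = 0.891, rho = 0.762, r = 0.763 without clones D and P), FRMD7 (r = 0.869, rho = 0.831, r = 0.764) and MAGED1 (r = 0.842, rho = 0.725, r = 0.744). RBP4 was nearest to BYSL (r = 0.894, rho = 0.772, r = 0.797 without clones C and O), NCLN (r = 0.892, rho = 0.833, r = 0.801) and SYDE1 (r = 0.892, rho = 0.855, r = 0.829). RARA was nearest to TADA3 (r = 0.878, rho = 0.853, r = 0.887 without clones A and F), ARHGEF10L (r = 0.850, rho = 0.875, r = 0.821) and ARF5 (r = 0.846, rho = 0.868, r = 0.824). RARG was nearest to C16H1orf233 (r = 0.922, rho = 0.858, r = 0.898 without clones F and H), ZFP36L2 (r = 0.902, rho = 0.841, r = 0.885) and BNC2 (r = 0.901, rho = 0.870, r = 0.829). These are the largest of many values and so lean upward.

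The heterogeneous population was next set against the 17 clones. None of the 6 tested retinoid genes was called by edgeR's quasi-likelihood test (0 of 6 at an unadjusted p under 0.05, against 7.68% of all genes, smallest adjusted p = 0.870), where 1.22% of all 11878 genes tested were called, 1.21% as higher and 0.00842% as lower in the heterogeneous population. DESeq2 and limma also called 0, each with 1 gene at an unadjusted p under 0.05. RARA was at 124.3 CPM and RARG at 132.7 CPM, near the medians of the clones, with log2 differences of -0.03 (standard error 0.28) and -0.02 (0.33). CRABP2 at 6.77 CPM, RBP4 at 43.9 CPM and ALDH1A1 at 19.7 CPM had log2 differences of -0.30 (0.69), -0.32 (0.56) and -0.51 (1.48). The standard errors were wide for the genes that spread widely over the clones, so a missing call leaves room for sizeable differences in ALDH1A1. The ALDH1A1 difference turned to 0.27 with limma, which averages log values.

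CRABP1 had 55 reads (3.42 CPM, counting interval 2.58 to 4.45) in the heterogeneous population, above 16 of 17 clones and below clone M. Its log2 difference from the clones was 1.42 (standard error 1.96, adjusted p = 0.870 by edgeR) and became 3.11 (adjusted p = 0.310) without clone M. With all 17 clones it was 3.35 by limma (adjusted p = 0.131) and 3.16 by DESeq2 (adjusted p = 0.513), so its size depended on the method. CRABP1 made up 33.5% of CRABP reads there (95% Wilson interval 26.8% to 41.1%), next to 52.4% in clone M and 28.4% in clone E. In such bulk samples few cells with much CRABP1 and many cells with little cannot be told apart.

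Other genes of retinoid handling came from lists of uptake and storage, retinol oxidation and reduction, retinoic acid breakdown, partner receptors and cofactors, and target genes. Of 47 such genes beside the 9, 46 symbols were listed, 30 reached 10 reads in a library and 29 were tested against the heterogeneous population. edgeR called 1 higher and 0 lower, where 1.22% of all genes tested were called, and 3 had an unadjusted p under 0.05, where 7.68% of all genes did. The median log2 difference was 0.23, against -0.04 over all genes tested. The called gene was RARRES1, a retinoic acid receptor responder, with 97 reads (6.03 CPM) against 0 to 12 reads in the clones (log2 difference 4.51, standard error 0.72, adjusted p = 0.000726 by edgeR). Its adjusted p stayed between 1.84e-06 and 0.0122 over all alternatives. All 9 tested macrophage markers also stood above every clone in this library, as 6.62% of genes did. CD163, a scavenger receptor of macrophages, had 667 reads in it and 0 to 12 in the clones. By edgeR 8 of 9 tested macrophage markers and 3 of 3 tested leukocyte markers were called higher in this 1 library. C1QA and TYROBP, 2 of those 8, had at most 4 reads in a clone and passed the filter on low counts through the heterogeneous library alone. The markers' part in the RARRES1 level was not tested.

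By step of the pathway, 0 of 5 tested genes of uptake and storage, 0 of 7 of retinol oxidation and reduction, 0 of 1 of breakdown, 0 of 10 partners and cofactors and 1 of 9 targets were called in the heterogeneous population, with some genes on more than 1 list. The other genes with an unadjusted p under 0.05, outside the rule for naming, were the lipoprotein receptor LRP1 (9739 CPM against 3963 to 7500 CPM in the clones, adjusted p = 0.328 by edgeR) and the receptor coactivator NCOA1 (55.2 CPM against 21.1 to 41.9 CPM, adjusted p = 0.474 by edgeR). DHRS3, which reduces retinaldehyde back to retinol, had 686 reads (42.6 CPM) there, above every clone (1.64 to 35.5 CPM), with a log2 difference of 1.79 (standard error 0.88, adjusted p = 0.656 by edgeR). CYP26B1, which degrades retinoic acid, had 5 reads (0.31 CPM), below every clone (0.43 to 14.4 CPM), with a log2 difference of -3.95 (2.08, adjusted p = 0.670 by the same test). Being below every clone was found in 10.9% of genes. Clone M, the lowest clone, had 8 reads of CYP26B1, so both counts were small and the order of these libraries is loose. The breakdown genes CYP26A1 and CYP26C1 and the retinol dehydrogenase RDH10 had 0 reads in every library.

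**Figure D5:**
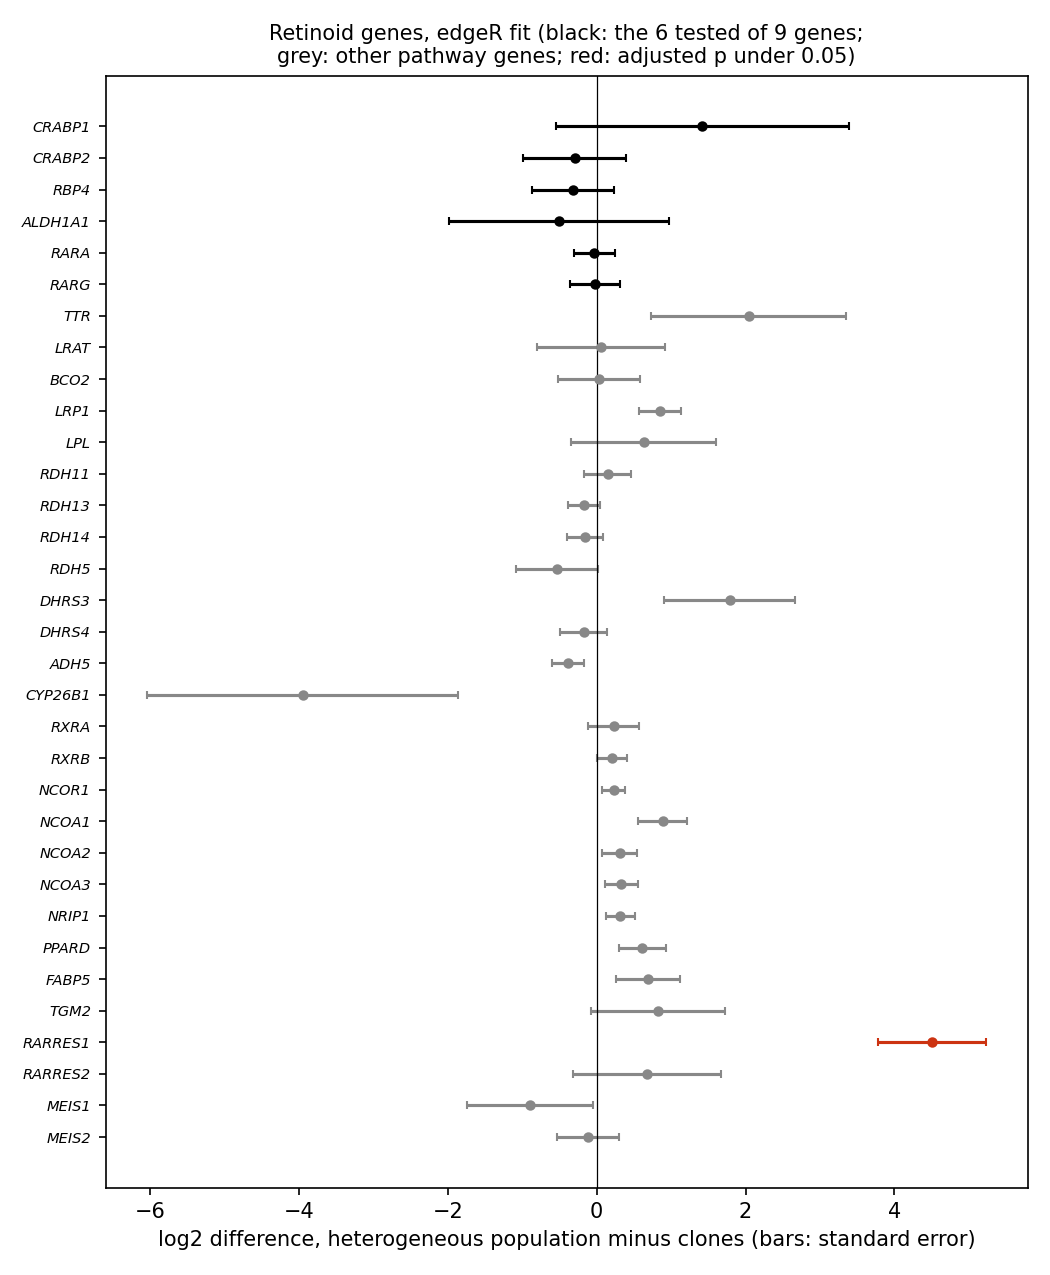
log2 difference of the heterogeneous population from the 17 clones for the 6 tested retinoid genes (black) and other tested genes of the pathway lists, with standard errors from edgeR. RARRES1, at 4.51, is the gene past an adjusted p of 0.05 (red), and the receptors lie at -0.03 and -0.02.

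Over the clones, 10 of the 28 other pathway genes above 1 CPM had a range of more than 4-fold, against the 24.0% of genes given above, and none was called in a clone by edgeR. Their median SD was 0.38 log2 units, against 0.35 over all genes at that level. TTR, the plasma partner of RBP4, ran from 0.74 CPM in clone G to 56.8 CPM in clone K and was at 55.4 CPM in the heterogeneous population. CYP26B1 was lowest in clone M and highest in clone G at 14.4 CPM, and DHRS3 was lowest in clone G and highest in clone B at 35.5 CPM. LRAT, which esterifies retinol for storage, ran from 0.50 CPM in clone C to 5.59 CPM in clone N, and the carotenoid-cleaving BCO2 from 3.54 to 18.3 CPM in the same clones.

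The lipase LPL ran from 0.89 CPM in clone G to 15.03 CPM in clone N. Among the targets, RARRES2, the gene of the adipokine chemerin, ran from 0.45 CPM (clone G) to 7.51 CPM (clone Q). The homeobox gene MEIS1 ran from 3.09 CPM (clone A) to 21.3 CPM (clone P). Clone P thus held the highest MEIS1 and CRABP2 and the lowest ALDH1A1. Clone M held the highest CRABP1 and the lowest RBP4, CYP26B1 and TGM2. Clones M and P also had the most reads on genes (18458157 and 17319929), and the part of depth in these places was not tested.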

How the data were processed

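The authors sequenced poly(A) RNA of 18 cultures with 50-bp single-end reads, aligned them to bosTau7 with STAR (2.3.0e per the labels) and counted reads per RefSeq gene (annotation release 103) with HTSeq. The deposited values are raw counts, which hold no correction for depth or gene length. The 5 tally lines per file that name no gene were left out. Reads outside genes came to 18.78% to 26.81%. A table that stacks counts of all samples was not used here. Gene lengths, coordinates and sequences were not used here, and the strand setting of the counting is not given in the sources used here.

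The genes and gene lists were chosen with earlier results of these data known, and so were the comparisons. CPM used the total reads on genes. edgeR 4.0.16 (TMM, filterByExpr, glmQLFit, glmQLFTest, Benjamini-Hochberg, threshold 0.05) in R 4.3.3 fitted all genes for the heterogeneous population against the clones and for each clone against the other 16. Each fit had 1 library on 1 side, so p-values rest on the spread between the clones on the other side. limma 3.58.1 (voom) and DESeq2 1.42.0 were alternatives. The fit of the heterogeneous population against the clones was tested on simulated data, with changes set only in genes of higher level. The fits of single clones and changes in genes with few reads were not tested in this way. Named were all 9 genes, pathway genes called or with a range over 4-fold, and the 3 genes most like each member that passed filterByExpr over the clones (CRABP1 did not), except 2 genes that are not reported here. Clone letters are those of the labels. Python 3.11.15 with pandas 2.3.3 and scipy 1.17.1 did the rest.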

Additional observations from a re-analysis of the deposited data

How the results depend on the processing

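The calls on retinoid genes kept their side of the threshold with DESeq2 size factors, library totals, no filter, limma and, for the heterogeneous population, DESeq2 and each clone left out. The exception was CRABP1 in clone M, where adjustment over all 17 fits gave an adjusted p of 0.0633 (edgeR) and left 0 calls on these genes and 10 on all genes, against 90 within fits. limma called 524 pairs of a gene and a clone, and DESeq2 called 91 genes in the heterogeneous population against 145 by edgeR. The cause of these last changes was not tested. In the heterogeneous population the uncalled differences near 0 changed sign: with limma ALDH1A1 was at 0.27 and RARG at 0.020, and with each clone left out RARA ran from -0.0583 to 0.0114 and RARG from -0.0540 to 0.0245. The r of CRABP2 with RARA, 0.260 over 17 clones (rho = 0.348), ran from 0.113 to 0.555, the highest without clone D. TMM shifted the median gene of a library by -0.22 to 0.17 log2 units against library totals. No paired analysis was possible because the heterogeneous population is 1 library and the replicate numbers only name samples. CRABP1 had an uncalled difference of 1.34 to 3.35 log2 units in the heterogeneous population over all alternatives, each clone left out included. Depth limits what can be said of CRABP1 (median 4 reads), ALDH1A3, ALDH1A2 and RARB.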

Other observations

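The other genes that edgeR called in clone M along with CRABP1 were RYR3, CADPS2 and ACSL3, chosen after their values were seen. RYR3, an intracellular calcium release channel, had 141 reads in clone M against at most 25 in another clone (log2 difference 3.06, adjusted p = 0.00372 by edgeR, and 0.0127 over all 17 fits). CADPS2, a regulator of vesicle release, had 41 reads against at most 4 (log2 difference 4.57, adjusted p = 0.0217 by edgeR, and 0.0633 over all fits). ACSL3, a long-chain acyl-CoA synthetase, had 8531 reads against at most 2409 (log2 difference 2.38, adjusted p = 0.0217 by edgeR, and 0.0701 over all fits). In read number, CRABP1 and RYR3 in the heterogeneous population, at 55 and 73 reads, both lay between clone M and all other clones. ACSL3 did so at 2809 reads, while CADPS2 had 3 reads there. Read numbers are not scaled for depth, and of these genes only CRABP1 is given in CPM above.

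The gene that ran most against ALDH1A1 over the clones was ZEB1, a zinc-finger repressor, with r = -0.927 (rho = -0.914, r = -0.875 without clones P and Q) among 10350 genes. It was also chosen after its value was seen.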
